A study of Mus musculus with 24 samples.

Results

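The 10 genes described here encode proteins that join, divide or clear mitochondria, and they were chosen by symbol. They are the fusion genes Mfn1, Mfn2 and Opa1, the OPA1 protease gene Oma1, the fission genes Dnm1l, Fis1, Mff and Mief1, and the mitophagy genes Pink1 and Fundc1. They are 10 of the 55414 genes listed in the count matrix, and all 10 were among the 10566 genes with enough counts to be tested. The RNA came from splenic conventional CD4+ T cells (Tconv, CD4+ CD25-, labelled TE) of conplastic mice. In these mice the nuclear genome is that of C57BL/6J throughout, and the mtDNA is either that of the same strain (mtDNA B6, labelled WT) or that of NZB (mtDNA NZB). Cells were either resting or activated for 72 h with CD28/CD3 beads, which stimulate through the antigen receptor complex and a costimulatory molecule, and, per the study's methods, IL-2, a T cell growth factor. This gave 4 groups of 6 libraries, 24 in all, and the study asked how the mtDNA haplotype alters the response of these cells. The study's methods give males 2 to 3 months old for most of its experiments, without saying which mice gave this RNA, and the time that resting cells spent in culture is not given in the sources used here. The labels do not say that the 6 libraries of a group came from separate mice, so the p-values measure the spread between these libraries, which may be technical. The mtDNA NZB mice are a model of 1 exchanged mtDNA in an otherwise B6 animal, and all 10 genes are encoded in the nucleus that both strains share.

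Mitochondria form a network that is remodelled by fusion and fission. Mitofusins join the outer membranes and OPA1 joins the inner membranes, and stress-activated OMA1 cleaves OPA1. Fission is carried out by the dynamin DRP1 (encoded by Dnm1l), which is brought to the outer membrane by the adaptors MFF and MIEF1, with FIS1 as a further outer-membrane protein of the machinery. PINK1 marks damaged mitochondria for removal by autophagy, and FUNDC1 is an outer-membrane receptor of mitophagy at low oxygen. In T cells, quiescent and memory cells are known for fused, elongated mitochondria and effector cells for more divided ones.

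The libraries held from 51409 to 6449395 molecules, counted by unique molecular identifiers (UMIs), and the smallest of them, resting mtDNA NZB replicate 2, stood far below the next at 641467. After scaling, 1 count in that library was worth 16.9 CPM (counts relative to the TMM-scaled total of the library). The 5 genes with no count there (Mfn1, Mfn2, Opa1, Mief1 and Fundc1) could have been present at up to 50.8 CPM (3 counts), more than any of them reached in the other libraries. Such intervals cover counting error only. The activation labels matched Il2ra, the gene of the CD25 chain of the interleukin-2 receptor, which lay between 0 and 5.71 CPM in the 12 resting libraries and between 42.0 and 180 CPM in the 12 activated ones. Cd4 was present in every library at 356 CPM or more. Marker RNA of B cells, myeloid cells, neutrophils and erythroid cells was mostly higher in resting libraries, and that of CD8 T cells and platelets in activated ones. The summed level of 8 B cell markers ran from 5746 to 17514 CPM at rest and from 1141 to 6406 CPM after activation, 9 myeloid markers from 457 to 2863 and from 5.88 to 101 CPM, 10 neutrophil and precursor markers from 452 to 23004 and from 8.05 to 201 CPM, and 10 erythroid markers from 119 to 7316 and from 20.2 to 187 CPM. The sum of 2 CD8 T cell markers ran from 16.9 to 142 CPM at rest and from 82.0 to 534 CPM after activation, and that of 4 platelet markers from 8.27 to 53.4 and from 18.0 to 504 CPM. Ppbp, of the platelet list, was at 0 in resting mtDNA B6 cells, C1qa was at 0 in the activated groups and Klra8, of the NK cell list, in all 4 groups, whereas the other B cell, myeloid, neutrophil, erythroid, CD8 T cell and platelet markers were found in every group. The part of this RNA in the changes on activation was not tested, and in bulk RNA fewer cells of a type cannot be told apart from less RNA per cell.

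The promoters of 3 of the 10 genes hold the same degenerate pattern of letters. NRF1, a factor that activates many nuclear genes of mitochondrial proteins, recognises a GC-rich palindrome. The letters searched on both strands were GCGC, any base and then TGCGC. All 10 genes were matched to 15 RefSeq promoter windows of GRCm38.p6, each from 250 bases before to 50 bases after a transcription start. The sequence was found in those of Opa1, Oma1 and Pink1. It was in 4.6% of all 32851 such windows and, counted by gene, in those of 5.19% of all 27025 genes. The windows below are shown because these 3 genes, whose RNA levels are given in the results that follow, share the pattern. The match, which differs among them at the base left free, is in capitals with 10 bases on either side, read along the strand of the gene.
Opa1: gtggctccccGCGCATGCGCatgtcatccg
Oma1: ggaaaggtgtGCGCCTGCGCggagccggct
Pink1: accgccccccGCGCTTGCGCacaggcgccg

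These windows are chr16:29579265-29579294 on the plus strand, chr4:103313813-103313842 on the plus strand and chr4:138326287-138326316 on the minus strand, and the matches begin 59, 23 and 10 bases before the start. The Opa1 match reads as a match on both strands. The E-box CACGTG, which reads the same on both strands, was in none of the 15 windows and in 7.15% of all windows. These are matches of letters and not measured binding.

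Within a haplotype, few of the 10 genes passed the test on activation. On activation in mtDNA B6 cells 1 of the 10, Mff, passed the test, in which a gene is called at an adjusted p of at most 0.05 (edgeR's quasi-likelihood test, Benjamini-Hochberg adjustment over all genes tested), beside 46.9% of all genes tested. In mtDNA NZB cells 3 of the 10 passed, Mff and Fis1 upward and Pink1 downward, beside 53.5% of all genes. In the contrast averaged over the haplotypes 5 passed, Mff, Fis1, Mfn2 and Opa1 upward and Pink1 downward, beside 63.4% of all genes (29.6% upward and 33.8% downward). The median log2 fold change of the 10 genes was 0.18 in mtDNA B6 and 0.24 in mtDNA NZB cells, and that of all genes was -0.03 and -0.06. No change reached 2-fold (a log2 fold change of 1), the largest in size being -0.58 for Pink1 in mtDNA NZB cells. For each of the 10 genes the resting and the activated libraries overlapped within both haplotypes. The like share of all genes tested was not taken, so this does not set the 10 apart. Pink1 in mtDNA NZB cells overlapped only through the smallest library. Without it the resting libraries ran from 138 CPM, and the activated ones reached 136 CPM.

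**Figure D1:**
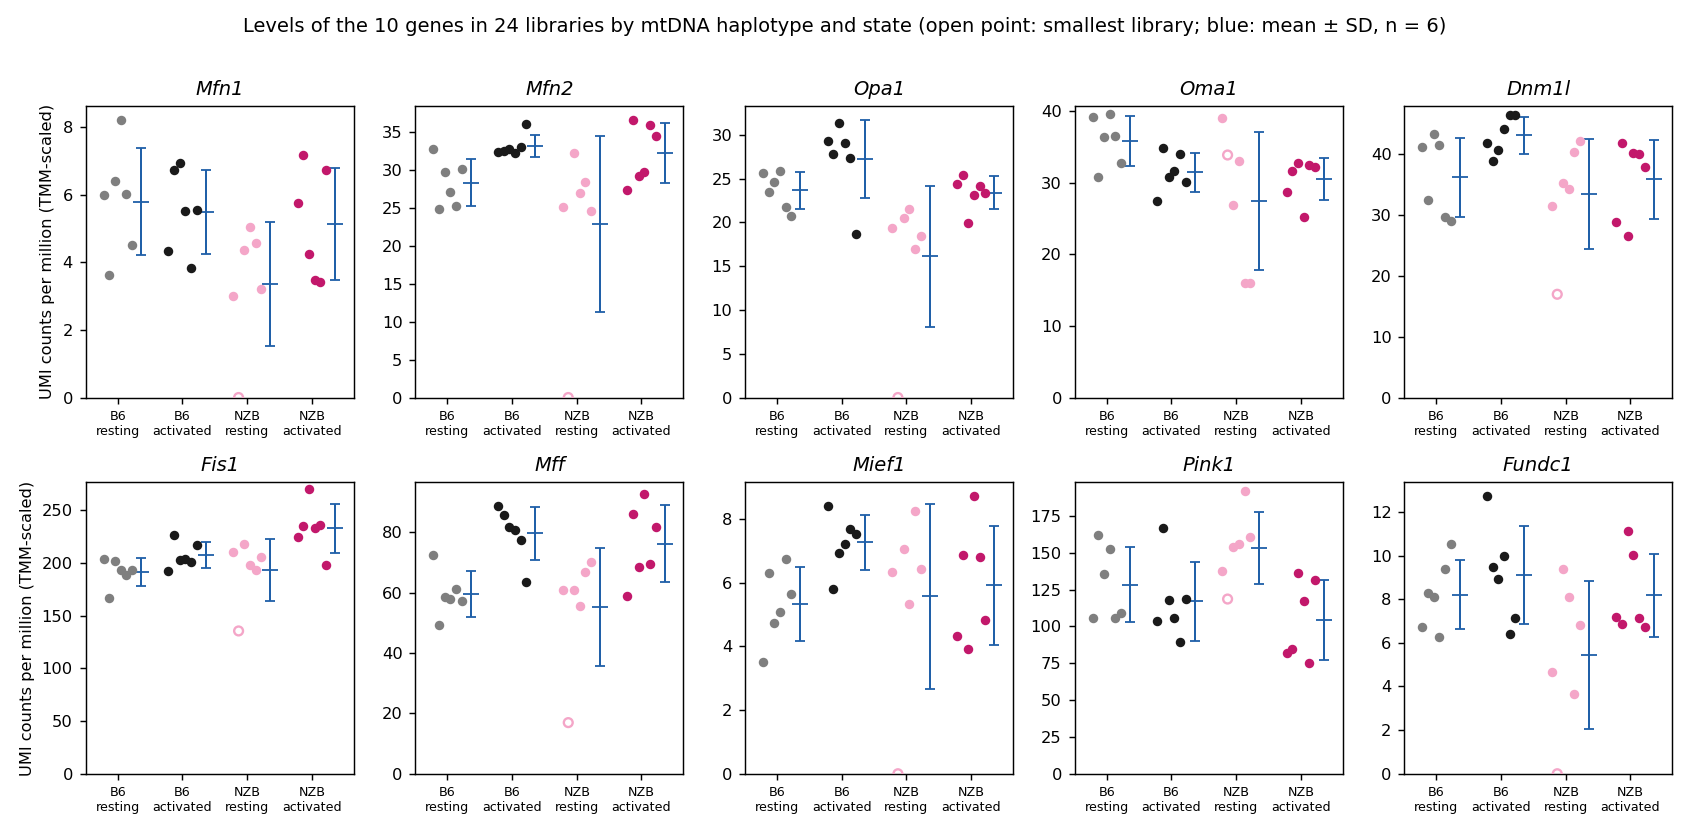
Level of each gene (CPM from UMI counts, TMM-scaled, linear axis from 0) in each of the 24 libraries, by mtDNA haplotype and state. Filled points are libraries, the open point is the smallest library (51409 counts), and blue bars give the mean ± SD (n = 6). Resting and activated libraries overlap in every panel, for Pink1 in mtDNA NZB cells only through the open point. The 2 lowest Oma1 values lie in resting mtDNA NZB cells.

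Of the 4 fission genes among the 10, Mff had the lowest adjusted p on activation in both haplotypes. It encodes an adaptor that recruits DRP1 to the outer membrane, and it lies on chromosome 1 (GRCm39, 82702582 to 82730684, plus strand) with no other annotated gene over its last 1000 transcript bases. In mtDNA B6 cells Mff ran from 49.3 to 72.6 CPM at rest (median 58.3) and from 63.4 to 88.9 CPM after activation (median 81.2). Of the 6 activated libraries 5 lay above every resting one, and replicate 6, the lowest, lay within their range. The mean rose from 59.5 ± 7.57 to 79.6 ± 8.89 CPM (SD, n = 6), a log2 fold change of 0.42 (SE 0.12, adjusted p = 0.00681). The Mff values of mtDNA NZB cells ran from 16.9 to 70.3 CPM at rest (median 60.8) and from 59.0 to 92.8 CPM after activation (median 75.5). The lowest of these values is the single Mff count of the smallest library, and without that library the resting mean was 62.9 ± 5.73 CPM (SD, n = 5), against 76.2 ± 12.7 CPM (n = 6) after activation. The rise in mtDNA NZB cells was 0.32 on the log2 scale (SE 0.13, adjusted p = 0.0387). The call in mtDNA B6 cells held in all 35 alternative fits (a fold limit aside), whereas that in mtDNA NZB cells was lost when any of the resting replicates 1, 3 and 4 or the activated replicates 2, 4 and 6 was left out, with adjusted p between 0.0608 and 0.0990, and by DESeq2 (adjusted p = 0.0808).

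Fis1, on chromosome 5, had from 493 to 1065 counts per resting mtDNA B6 library, so its level was known more precisely than those of the other fission genes. It ran from 167 to 204 CPM at rest (median 193) and from 192 to 227 CPM after activation (median 203) in mtDNA B6 cells, and the ranges overlapped. The log2 fold change there was 0.12 (SE 0.09, adjusted p = 0.292). Its values in mtDNA NZB cells ran from 136 to 218 CPM at rest (median 202) and from 198 to 270 CPM after activation (median 234), and the highest of all Fis1 values was that of activated replicate 3. The log2 fold change was 0.22 (SE 0.09, adjusted p = 0.0477), a rise of 1.16-fold that passed in 8 of 24 fits with 1 library left out. Its adjusted p was 0.122 without activated replicate 3 and 0.0893 by DESeq2. Averaged over both haplotypes, Fis1 rose by 0.17 (SE 0.06, adjusted p = 0.0249).

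Dnm1l, the gene of the fission dynamin itself, ran from 29.0 to 43.2 CPM in resting and from 38.9 to 46.4 CPM in activated mtDNA B6 cells, with a log2 fold change of 0.25 (SE 0.13, adjusted p = 0.112). In mtDNA NZB cells the change was 0.00 (SE 0.14, 95% interval -0.28 to 0.29). Mief1, the gene of an adaptor that binds DRP1, was a low gene with at most 8.71 CPM in any library. Its value on the log2 scale was 0.44 in mtDNA B6 cells (SE 0.21, adjusted p = 0.0806) and -0.13 in mtDNA NZB cells (SE 0.22, adjusted p = 0.638). Neither Dnm1l nor Mief1 passed the test within a haplotype, and each interval allows a change of either sign except that of Mief1 in mtDNA B6 cells (0.02 to 0.86). Without resting mtDNA NZB replicate 2, whose removal changes the shared spread and the scaling, Mief1 passed in mtDNA B6 cells (0.48, adjusted p = 0.0487), and Dnm1l passed there without resting mtDNA B6 replicate 3 (0.35, adjusted p = 0.0403).

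None of the fusion genes passed the test within a haplotype over all 24 libraries. Mfn2, a mitofusin that also tethers mitochondria to the endoplasmic reticulum, ran from 24.8 to 32.7 CPM in resting mtDNA B6 cells (median 28.4) and from 32.2 to 36.1 CPM in activated ones (median 32.6). The activated values lay close together, and only the highest resting library, replicate 1, reached into their range. For mtDNA NZB cells the range was 0 to 32.2 CPM at rest (24.5 CPM or more without the smallest library) and 27.3 to 36.5 CPM after activation. The change was 0.23 on the log2 scale in mtDNA B6 cells (SE 0.12, adjusted p = 0.133) and 0.27 in mtDNA NZB cells (SE 0.13, adjusted p = 0.0847), and averaged over both it rose by 0.25 (SE 0.09, adjusted p = 0.0183). The averaged call was lost with library sets as a term (0.15, adjusted p = 0.239), with the replicate block by label number (0.21, adjusted p = 0.0990) and in the table without UMI correction (0.21, adjusted p = 0.174). Without the smallest library Mfn2 passed within each haplotype (0.27, adjusted p = 0.0263, in mtDNA B6 cells and 0.29, adjusted p = 0.0257, in mtDNA NZB cells), and without resting replicate 3 it passed in mtDNA NZB cells too (0.34, adjusted p = 0.0413).

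Opa1, the inner-membrane fusion dynamin, ran from 20.7 to 25.8 CPM in resting and from 18.6 to 31.4 CPM in activated mtDNA B6 cells, where the lowest value, that of activated replicate 6, lay below every resting library and the other 5 above all of them. The log2 fold change was 0.21 (SE 0.13, adjusted p = 0.203). In mtDNA NZB cells it ran from 0 to 21.5 CPM at rest (17.0 CPM or more without the smallest library) and from 19.96 to 25.4 CPM after activation. Here the change was 0.29 (SE 0.14, adjusted p = 0.0974), and it passed without the smallest library (0.30, adjusted p = 0.0440). Averaged over both haplotypes Opa1 rose by 0.25 (SE 0.10, adjusted p = 0.0304), which no longer passed without activated mtDNA B6 replicate 3 (adjusted p = 0.0528) or by DESeq2 (adjusted p = 0.0929). Mfn1, the other mitofusin, had at most 8.22 CPM in any library and log2 fold changes of -0.09 (95% interval -0.57 to 0.39) in mtDNA B6 and 0.36 (-0.18 to 0.91) in mtDNA NZB cells, and it did not pass in either. The values for Oma1 were -0.19 (SE 0.16, adjusted p = 0.337) and 0.21 (SE 0.17, adjusted p = 0.315).

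Pink1, the kinase gene of the PINK1 and Parkin pathway, moved the other way. In mtDNA NZB cells it ran from 119 to 192 CPM at rest (median 155) and from 75.2 to 136 CPM after activation (median 101). Activated replicates 3 and 6, at 136 and 131 CPM, lay within the resting range, and the other 4 lay below every resting library. The lowest resting value came from the smallest library, and without it the resting libraries ran from 138 CPM, above all 6 activated ones. The mean over all 6 fell from 153 ± 24.6 to 104 ± 27.1 CPM (SD, n = 6), a log2 fold change of -0.58 (SE 0.17, adjusted p = 0.00507). The call held in all 35 alternative fits (a fold limit aside), with values between -0.68 and -0.39. In mtDNA B6 cells Pink1 ran from 105.5 to 162 CPM at rest (median 122) and from 89.3 to 167 CPM after activation (median 112), and the ranges overlapped nearly in full. The log2 fold change there was -0.13 (SE 0.16, adjusted p = 0.517). The difference between these responses was -0.45 (SE 0.23, 95% interval -0.93 to 0.03, adjusted p = 0.382), so the fall was not shown to differ between haplotypes. Fundc1, at 12.7 CPM or less in every library, had log2 fold changes of 0.15 (SE 0.22, adjusted p = 0.593) in mtDNA B6 and 0.32 (SE 0.25, adjusted p = 0.281) in mtDNA NZB cells.

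**Figure D2:**
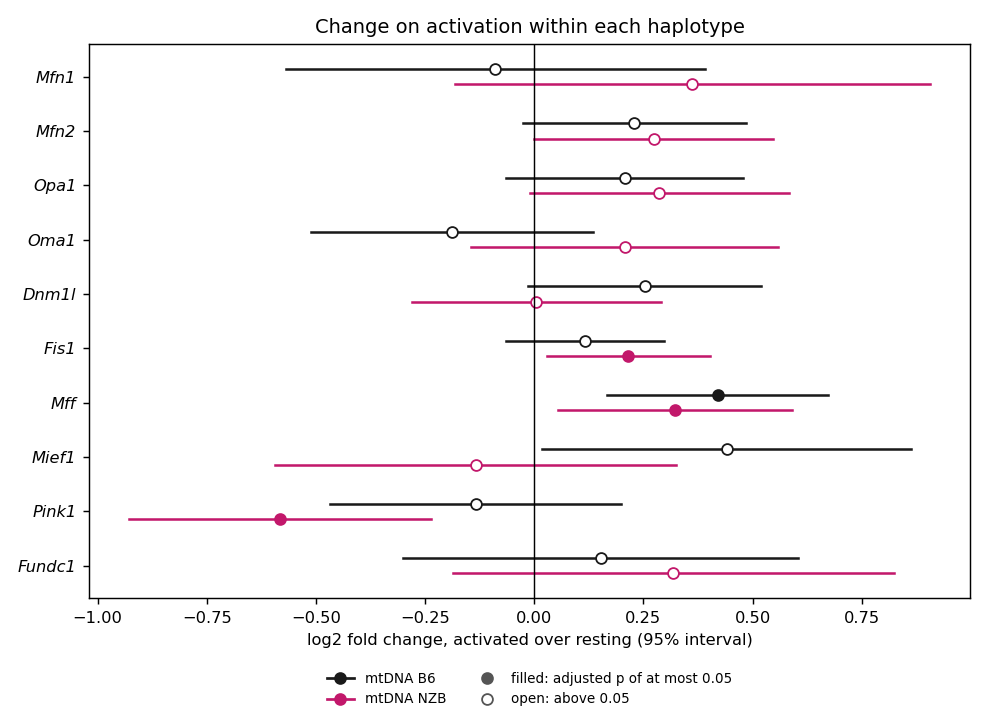
Log2 fold change of activated over resting cells with its 95% interval, for each gene in mtDNA B6 (black) and mtDNA NZB (pink) cells. Filled points have an adjusted p of at most 0.05, which are Mff in both haplotypes and Fis1 and Pink1 in mtDNA NZB cells, and the other 16 points are open.

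The sizes of the rises were small enough for the scaling to matter. TMM, the main scaling, assumes that most genes do not change, and under it 46.9% of all genes were called in mtDNA B6 and 53.5% in mtDNA NZB cells. Scaling to the total count moved the median of all genes on activation upward by 0.12 on the log2 scale in both haplotypes. Under total count scaling 47.5% of all genes were called in mtDNA B6 and 53% in mtDNA NZB cells. Of the 10, this scaling called 5 upward in the former (Mfn2, Dnm1l, Fis1, Mff and Mief1), and 4 upward (Mfn2, Opa1, Fis1 and Mff) and 1 downward (Pink1) in the latter. Averaged over both haplotypes the fall of Pink1 was then -0.23 and was not called (adjusted p = 0.0657). The sets of libraries with like numbers of reads per UMI were spread unevenly over the groups, and with the set as a term Mff in mtDNA B6 cells (0.43, adjusted p = 0.0478) and Pink1 in mtDNA NZB cells (-0.59, adjusted p = 0.00813) were called, whereas Mff (adjusted p = 0.0869) and Fis1 (adjusted p = 0.0682) in mtDNA NZB cells were not. Averaged over both haplotypes, Mfn2, Opa1 (adjusted p = 0.164) and Fis1 (adjusted p = 0.0737) were not called with that term either.

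Reads of other genes could enter some of these counts. The 3′ ends of 7 of the 10 genes overlap another annotated gene on the opposite strand within the last 1000 transcript bases, and whether the counting used strand is not stated. Protein-coding partners are Ddost for Pink1, Yars2 for Dnm1l, Gnb4 for Mfn1 and Fv1 for Mfn2, named from the annotation, whereas the partners of Fis1, Mief1 and Fundc1 are other transcripts and Mff, Oma1 and Opa1 have none. Ddost, of the oligosaccharyltransferase, rose in mtDNA NZB cells by 0.42 (SE 0.12, adjusted p = 0.00546) where Pink1 fell. Gnb4, a G protein subunit gene, rose there by 0.80 (SE 0.27, adjusted p = 0.0138), and the value for Yars2 was 0.23 (SE 0.19, adjusted p = 0.323). Fv1 had a group mean of at most 0.0967 CPM and was not tested.

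Between haplotypes none of the 10 genes passed the test in either state. In resting cells 2 of the 10, Oma1 and Opa1, had an unadjusted p under 0.05 in edgeR's test, as had 2196 of the 10566 genes tested. Of all genes 2.76% were called by edgeR. DESeq2 called 0 of the 10 and 180 of the 25030 genes it tested. Over 21 libraries, which lack 3 mtDNA NZB ones with the smallest among them, edgeR called 6.11% of all genes and none of the 10. Oma1, the protease that cleaves OPA1, ran from 30.8 to 39.5 CPM in mtDNA B6 cells (median 36.5) and from 16.0 to 39.1 CPM in mtDNA NZB cells (median 29.9). The mtDNA NZB libraries were widely spread, with replicates 5 and 6 at 16.0 and 16.1 CPM, replicate 3 at 26.9 CPM and the other 3 within the mtDNA B6 range, the smallest library among them on 2 counts. The log2 difference of mtDNA NZB from mtDNA B6 was -0.43 (SE 0.17, 95% interval -0.78 to -0.09, unadjusted p = 0.0164, adjusted p = 0.140 by edgeR's test). Of the alternatives run, it passed only without resting mtDNA NZB replicate 1, the highest of that group (-0.61, adjusted p = 0.0293). The difference for Opa1 was -0.31 (SE 0.14, interval -0.60 to -0.02, adjusted p = 0.216), and apart from the smallest library its mtDNA NZB values ran from 17.0 to 21.5 CPM against 20.7 to 25.8 CPM. Mfn1 had a difference of -0.52 (SE 0.26, interval -1.05 to 0.01) and Pink1 one of 0.30 (SE 0.17, interval -0.05 to 0.64). For Mff and Dnm1l the differences were 0.05 and 0.00, with intervals of -0.22 to 0.31 and -0.28 to 0.28.

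In activated cells 0 of the 10 genes passed in edgeR's test, 0 had an unadjusted p under 0.05, and DESeq2 called 0, beside 0% of all genes tested. Of all genes 327 had an unadjusted p under 0.05 by edgeR and 352 by DESeq2, which called 0 as well. The 10 differences lay within ±0.283 on the log2 scale. Fis1 had the lowest unadjusted p, 0.0691, with 233 ± 23.0 CPM in mtDNA NZB against 207 ± 12.3 CPM in mtDNA B6 cells (SD), a difference of 0.17 (interval -0.01 to 0.35). The values were -0.25 for Dnm1l (interval -0.52 to 0.02) and, for Opa1, -0.23 (interval -0.51 to 0.05). For Mfn2 and Mff the intervals were -0.28 to 0.23 and -0.31 to 0.20.

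**Figure D3:**
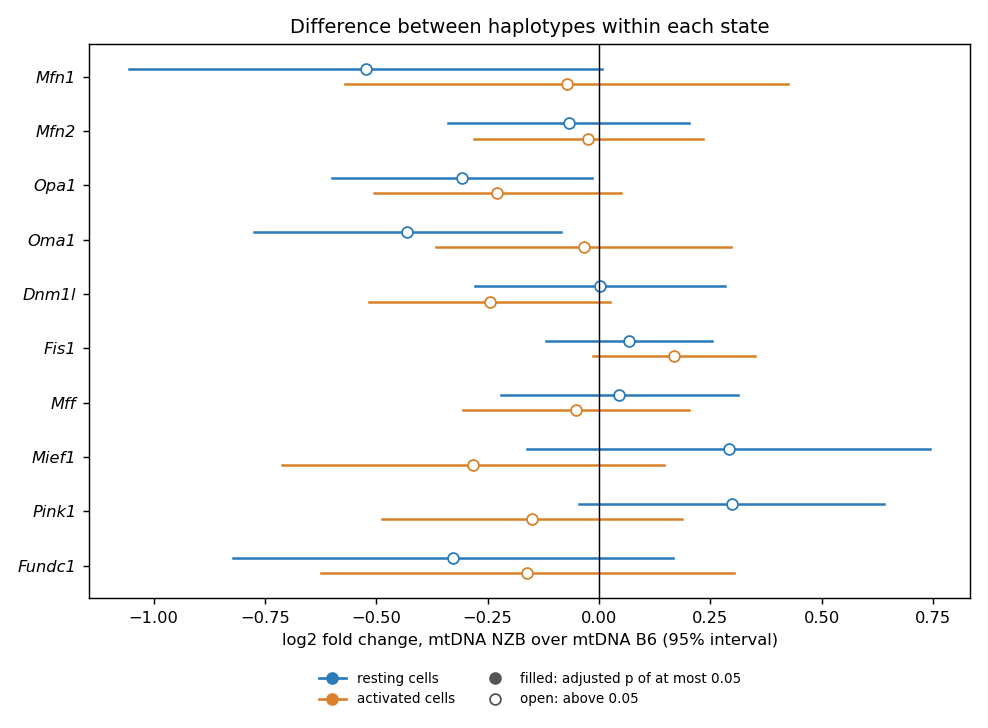
Log2 difference of mtDNA NZB from mtDNA B6 cells with its 95% interval, for each gene at rest (blue) and after activation (orange). Every point is open (adjusted p above 0.05), and the intervals of Oma1 (-0.78 to -0.09) and Opa1 (-0.60 to -0.02) at rest lie below 0.

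The response to activation was not shown to differ between haplotypes for any of the 10 genes. By edgeR 0 passed and 0 had an unadjusted p under 0.05, and by DESeq2 0 passed. Over all genes 0% were called by edgeR, with 1512 at an unadjusted p under 0.05, and 1 gene by DESeq2, with 1496. Over the same 21 libraries as above edgeR called 1.04% of all genes and none of the 10, with the lowest adjusted p at 0.238 (Pink1). The largest differences, mtDNA NZB response less mtDNA B6 response, were -0.57 for Mief1 (interval -1.20 to 0.05, adjusted p = 0.386), 0.45 for Mfn1 (-0.28 to 1.18), -0.45 for Pink1 and 0.40 for Oma1 (-0.08 to 0.87). That of Mff was -0.10 (interval -0.46 to 0.27) and that of Fis1 0.10 (-0.16 to 0.36).

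Other genes of the same processes held larger changes than these 10. They were listed by function, and each list holds the members named above that belong to it. Of the 8 listed genes of cristae junctions (the MICOS complex, which holds the necks of the inner-membrane folds), 6 were tested. On activation 4 of them rose in the mtDNA B6 haplotype and 5 in mtDNA NZB, and 0 fell in either. The directions are set beside 22.4% of all genes rising and 24.5% falling in the former, and 25.2% and 28.4% in the latter. The median log2 fold change of the list was 0.34 and 0.59. Chchd6, a MICOS subunit, rose by 1.34 in mtDNA NZB cells (SE 0.24, adjusted p = 4.60e-05), from 4.51 ± 2.62 to 13.4 ± 2.89 CPM (SD, n = 6). The subunit genes that rose in both, named after their values were seen, were Micos10 (0.50 and 0.71), Immt (0.48 and 0.81), Chchd3 (0.30 and 0.38) and Micos13 (0.29 and 0.46).

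Of the 8 genes of OPA1 processing and prohibitins, all tested, mtDNA B6 cells had 2 risen and 1 fallen and mtDNA NZB cells 3 risen and 0 fallen. Stoml2, whose product binds prohibitins in the inner membrane, rose by 0.60 (SE 0.15, adjusted p = 0.00218) in mtDNA B6 and by 1.21 (SE 0.17, adjusted p = 1.37e-06) in mtDNA NZB cells. The prohibitin gene Phb2 rose by 0.29 and 0.70, Phb1 rose by 0.52 in mtDNA NZB cells, and the protease gene Spg7 fell by 0.34 in mtDNA B6 cells, all 3 named after their values were seen. The median of the list was 0.09 in mtDNA B6 and 0.22 in mtDNA NZB cells.

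Of 14 fission genes 11 were tested, and they went both ways. Risen and fallen genes numbered 3 and 3 in mtDNA B6 cells (median 0.12) and 4 and 3 in mtDNA NZB cells (median 0.00). Mtfr2, a fission regulator, rose by 1.74 (SE 0.41, adjusted p = 0.00104) in mtDNA B6 cells, from 4.40 ± 2.79 to 15.5 ± 4.15 CPM (SD, n = 6). The rise of Mtfr2 in mtDNA NZB cells was 1.91 (SE 0.47, adjusted p = 0.00118), where resting replicate 6 stood at 12.4 CPM and the other resting libraries at 2.29 CPM or less, and 3.14 over the 21 libraries that leave this one out. Beside Mff and Fis1, the other fission genes that passed, named after their values were seen, were Inf2 (0.50, mtDNA B6) and Mtfp1 (0.80, mtDNA NZB) upward and Dnm2, Mief2 and Mtfr1l downward in both haplotypes, with Mtfr1l at -0.70 and -0.63. Of the 4 transport genes Trak2 fell in both (-0.45 and -0.54) and Rhot2 rose in mtDNA NZB cells (0.42), both named after their values were seen.

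Among the tested genes of the lists, the largest changes were in the mitophagy and autophagy lists. Bnip3, an outer-membrane mitophagy receptor, rose by 2.99 (SE 0.37, adjusted p = 4.48e-07) in mtDNA B6 and by 2.90 (SE 0.41, adjusted p = 2.04e-06) in mtDNA NZB cells. It ran from 1.65 to 5.14 CPM in resting and from 9.90 to 50.2 CPM in activated mtDNA B6 cells, with no overlap. In mtDNA NZB cells the activated libraries began at 13.7 CPM, and the resting ones overlapped them only through the smallest library (16.9 CPM on 1 count). The share of all genes without overlap was not taken. Of 21 mitophagy genes tested (24 listed) 3 had risen and 3 fallen in mtDNA B6 cells (median 0.05), against 4 and 9 in mtDNA NZB cells (median -0.45), with Pink1 among the 9. Over 21 libraries the 9 became 6. The test of the difference between the activation responses called 0 of the mitophagy genes and 0 of the core autophagy genes, so their numbers were not shown to differ between haplotypes. Sqstm1, the autophagy receptor p62, fell by 1.64 on the log2 scale in mtDNA NZB cells (SE 0.20, adjusted p = 3.06e-07) and by 0.87 in mtDNA B6 cells (SE 0.20, adjusted p = 0.000792). Of 26 core autophagy genes tested (28 listed) 9 fell in mtDNA B6 cells (median -0.18) and 13 in mtDNA NZB cells (median -0.49), and 0 rose in either. Map1lc3a, an LC3 gene, fell by 2.00 (SE 0.25, adjusted p = 5.83e-07) and 2.68 (SE 0.26, adjusted p = 9.31e-09), Wipi1, which binds the phagophore, by 2.34 (SE 0.48) and 2.26 (SE 0.52), and Atg14, of the lipid kinase complex, by 1.04 (SE 0.24) in mtDNA B6 cells. Wipi1 and Sqstm1 overlap a protein-coding gene on the opposite strand at the 3′ end. The sums of B cell, myeloid, neutrophil and erythroid markers were lower after activation, as were these genes, and their part in the falls was not tested.

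**Figure D4:**
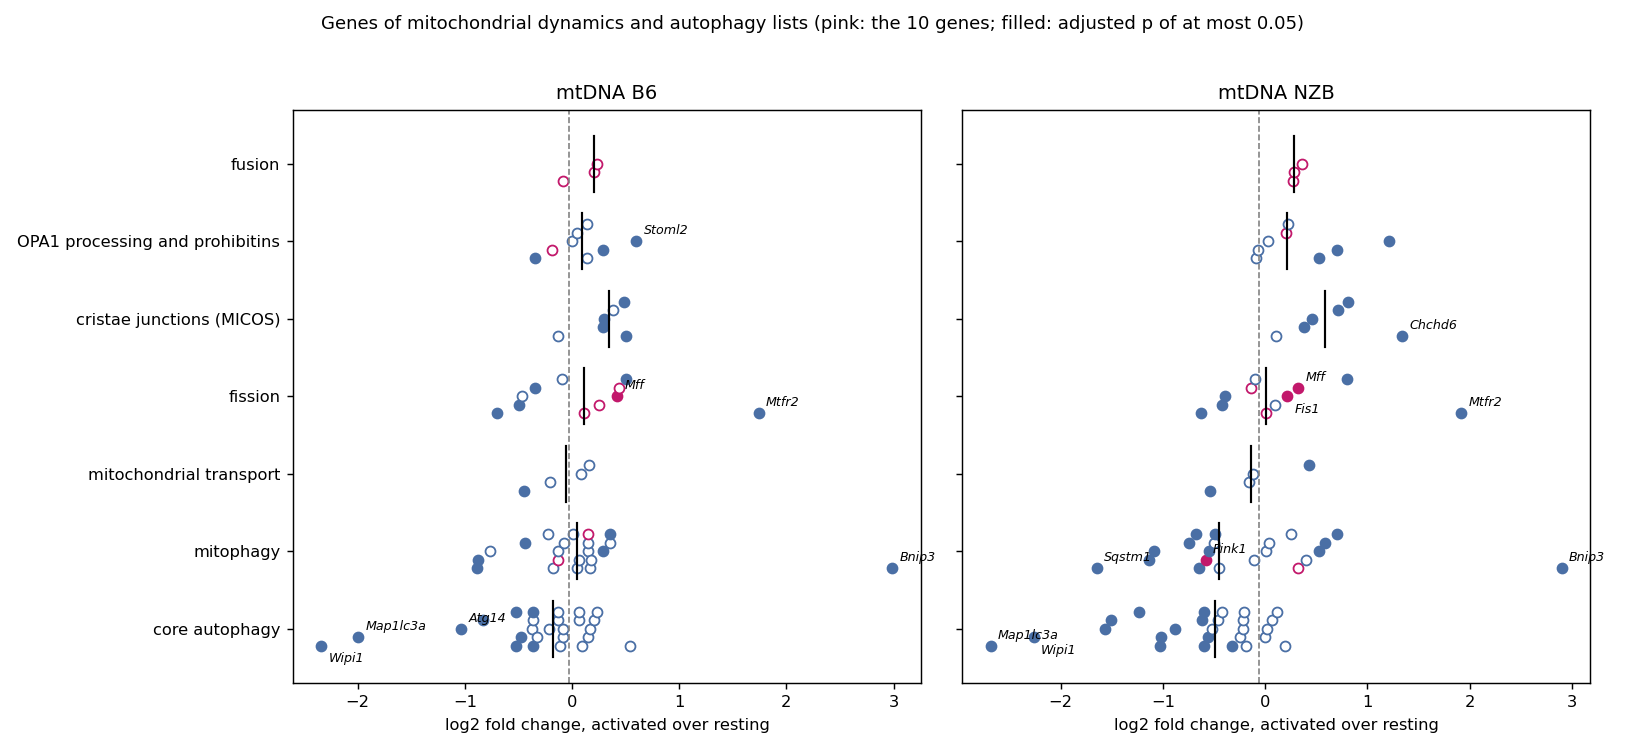
Log2 fold change of activated over resting cells for each tested gene of 7 lists, in mtDNA B6 (left) and mtDNA NZB cells (right). Each point is a gene, pink for the 10 genes and blue for the others, filled at an adjusted p of at most 0.05. Black bars are list medians and the dashed line is the median of all genes tested (-0.03 and -0.06). The core autophagy points that passed all lie below 0, the MICOS points that passed all lie above 0, and Bnip3 stands apart on the right of both panels.

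Between haplotypes at rest 3 genes of the lists passed, beside 2.76% of all genes (1.9% higher and 0.861% lower in mtDNA NZB cells). Ulk1, the kinase that starts autophagy, was higher in mtDNA NZB cells by 1.16 (SE 0.30, adjusted p = 0.0389) and Sqstm1 by 0.73 (SE 0.20, adjusted p = 0.0460), and the fission gene Mtfp1 was lower by 1.39 on the log2 scale (-1.39, SE 0.32, adjusted p = 0.0307). Ulk1 ran from 31.1 to 60.6 CPM in mtDNA B6 libraries, and in mtDNA NZB libraries replicates 5 and 6 stood at 210 and 141 CPM while the other 4 lay between 40.1 and 53.4 CPM. Without resting mtDNA NZB replicate 5 none of the 3 passed (0.71, adjusted p = 0.251, for Ulk1, 0.49, adjusted p = 0.249, for Sqstm1 and -1.18, adjusted p = 0.135, for Mtfp1). None passed with library sets as a term (adjusted p = 0.157, 0.173 and 0.0957), in the table without UMI correction or with only the groups compared. The calls of Ulk1 and Mtfp1 were also lost without several other libraries. That of Sqstm1 was lost without any single mtDNA B6 library or any single activated mtDNA NZB library. In activated cells 0 genes of the lists passed in edgeR's test.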

How the data were processed

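RNA of 24 libraries of splenic Tconv cells (4 groups of 6) was sequenced from the 3′ end by the MARS-seq protocol with UMIs. Per the labels and the study's methods, the authors trimmed reads with cutadapt, aligned them with STAR, counted them over the last 1000 bases of each gene's 3′ region with HTSeq and collapsed them by UMI. The deposited UMI-corrected table holds whole-number counts, not normalized, and it was the table used. A further deposited table of counts, read as those without UMI correction, was an alternative. In it 1 column of no sample was not used. Whether counting used strand is not given in the sources used here.

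Library totals ran from 51409 to 6449395 UMIs, and the number of counts sets the precision of each gene's level. No 2 libraries of a group were alike within sampling noise. Groups came from the labels, where WT was read as mtDNA B6 and TE as Tconv.

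All 4 groups entered 1 quasi-likelihood fit (edgeR 4.0.16 in R 4.3.3, TMM scaling, filterByExpr), which tested 10566 genes in 6 comparisons with p-values adjusted by Benjamini-Hochberg across every tested gene of a comparison. A gene was called at an adjusted p of at most 0.05, with no limit on the fold. The SE is the log2 fold change divided by the root of the F statistic. CPM values are counts relative to TMM-scaled totals. Alternatives were DESeq2 1.42.0, other scalings and filters, the further table, replicate blocks, sets of libraries by reads per UMI, only the groups compared, a fold limit, 21 libraries and leaving out each library. The 21 libraries lack 3 mtDNA NZB ones, which an earlier analysis of these data found not to enter the study's mean counts.

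The 10 genes, the gene lists and the marker lists were chosen with earlier results of these data known. Named were the 10 genes and, per comparison, the 3 listed genes with the largest rise and the 3 with the largest fall among those called with a mean of at least 5 CPM in a group compared. Other listed genes are marked as named after their values were seen. Overlaps of genes came from GENCODE M39 (GRCm39), which held 24820 of the 25030 genes with a count, and promoter sequences from RefSeq (GRCm38.p6).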

Additional observations from a re-analysis of the deposited data

Results flagged for a closer look

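Within each group of 6 libraries, 7 of the 40 sets of values (10 genes in 4 groups) held a lowest or highest library whose gap to its nearest neighbour, divided by the whole range, was above Dixon's 95% critical value. Chance gives such a gap in about 1 in 20 sets. Of the 7, 5 lie in the smallest library, resting mtDNA NZB replicate 2, where Mfn2, Opa1 and Mief1 were at 0 CPM, Mff was at 16.9 CPM on 1 count (nearest library 55.7 CPM) and Fis1 was at 136 CPM on 8 counts (nearest library 193 CPM). The other 2 lie in activated mtDNA B6 replicate 6, where Opa1 was the lowest of its group at 18.6 CPM (nearest library 27.4 CPM) and Mfn2 the highest at 36.1 CPM (nearest library 33.0 CPM). The same library had the lowest Mff of its group, 63.4 CPM.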

How the results depend on the processing

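The count of the 10 genes called on activation in mtDNA B6 cells, 1 in the analysis reported, was 5 with total count scaling, 2 with only the groups compared and 0 with a log2 fold change of at least 1 required as well. With 1 library left out it ran from 1 to 3, being 3 without resting mtDNA NZB replicate 2 (Mfn2, Mff and Mief1). In mtDNA NZB cells the count of 3 became 5 with total count scaling, 0 with the fold limit, and 1 (Pink1) with DESeq2, without a filter on low counts, with the stricter filter, in the table without UMI correction, with a replicate block by either number, with library sets as a term and with only the groups compared. With 1 library left out it ran from 1 to 5, being 1 without resting replicates 1 or 4 or activated replicates 2 or 4, and 5 without resting replicate 2. Averaged over both haplotypes the count of 5 became 3 without the filter, 2 in the table without UMI correction, 2 with the replicate block by label number, 2 with library sets as a term and 0 with the fold limit. Between haplotypes at rest it was 0, and from 0 to 1 with 1 library left out (Oma1, without resting mtDNA NZB replicate 1). It was 0 in activated cells and for the difference of responses under each alternative run.

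Per the study's methods, isolated T cells were split into resting and activated portions. Libraries that share a label number may therefore be pairs, which the sources do not state. Deviations of such libraries correlated from -0.08 to 0.25 over 5 mtDNA B6 pairs, 3 of them over 0.1. Over 4 mtDNA NZB pairs they correlated from -0.16 to 0.00. For mtDNA B6 numbers 13 and 14 (0.14 and 0.25) the correlation exceeded every mismatched value (at most 0.10 and 0.08). For number 16 (0.04) it exceeded those with the other shared numbers (at most 0.03). The resting library of number 16 correlated more highly, at 0.12, with the activated library of number 2. For numbers 22 and 23, and for all 4 mtDNA NZB pairs, a mismatched value was higher. These values do not settle the pairing, and the main fit took the libraries as unpaired. The replicate block by label number uses only libraries that share a number and cannot give the comparisons between haplotypes. No value past the threshold changed sign. Depth limits Mfn1, Mief1 and Fundc1 most, since each had fewer than 13 CPM in every library.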

Other observations

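Resting mtDNA NZB replicates 5 and 6 differed from the other libraries of their group in several genes. Oma1 was at 16.0 and 16.1 CPM (26.9 to 39.1 CPM in the other 4), Ulk1 at 210 and 141 CPM (40.1 to 53.4 CPM), Sqstm1 at 1546 and 1229 CPM (407 to 730 CPM) and Map1lc3a, an LC3 gene, at 152 and 99.6 CPM (50.8 to 56.0 CPM). Pink1 was also highest in these libraries, at 192 and 161 CPM. Replicate 6 had the highest neutrophil (23004 CPM), myeloid (2863 CPM) and erythroid (3761 CPM) marker sums of its group and the lowest T cell identity sum (5547 CPM). Replicate 5, with the higher Ulk1, Sqstm1 and Map1lc3a, had the lowest neutrophil (452 CPM) and B cell (5746 CPM) sums and a T cell identity sum of 9320 CPM.

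The summed CPM of the fission genes Dnm1l, Fis1, Mff and Mief1 was set against that of the fusion genes Mfn1, Mfn2 and Opa1 in each library. The ratio ran from 4.87 to 5.40 in resting mtDNA B6 libraries (median 5.03), from 4.67 to 5.55 in activated ones (median 5.11), from 5.49 to 7.03 in the 5 resting mtDNA NZB libraries with a fusion count (median 6.17) and from 5.00 to 6.91 in activated mtDNA NZB libraries (median 5.52). Fis1 made up 58.0% to 73.2% of the fission sum. This ratio was chosen after the values were seen and was not tested, and a ratio of RNA levels says nothing of the levels of the proteins.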
